A study of Mus musculus with 11 samples.

Results

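The genes examined here are a list of 36 mouse genes of fat cell identity and lipid storage, of which 35 were found by symbol among the 22836 genes of the deposited table. They comprise 4 secreted products of fat cells, 4 lipid droplet proteins, 6 proteins of fatty acid and glucose uptake or of the cell surface, 4 lipolysis genes, 5 regulators, 5 genes of fatty acid synthesis and 7 of triglyceride synthesis. The remaining gene, *Ucp1* (heat production in brown fat), was not analysed here. Whole-colon RNA was sequenced from 3 control libraries (genotype Tfam fl/fl), 3 libraries of Tfam fl/fl Cd4 Cre mice (hereafter non-transferred) and 5 libraries of Tfam fl/fl Cd4 Cre mice given CD4 T cell therapy (hereafter transferred). All 3 groups carry the floxed *Tfam* allele. Cre is driven by *Cd4*, so that TFAM, a factor that maintains mitochondrial DNA, is lost in CD4 and CD8 T cells and not by design in fat cells, and the transferred mice received CD4 T cells of young congenic donors while keeping their own T cells. The labels give no age for these libraries, mice of this transfer experiment were 10 months old in another assay described, the study compares mice with littermates, and neither states that animals were pooled. The study's methods describe removal of fat when intestine was harvested, but do not say how completely this was done or give a separate step for the RNA samples. The study describes the dots of its plots as biological samples but gives no number of mice for the colon RNA sequencing. No animal is named in the labels, and the p-values therefore reflect variation among these libraries, part of which may be technical. In bulk RNA, fewer cells of a type and less RNA per cell cannot be told apart.

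White fat cells store triglyceride in a single large lipid droplet coated by perilipin and CIDE proteins, release fatty acids through a chain of lipases, and secrete hormones such as adiponectin and leptin. PPARG and C/EBP alpha are the transcription factors that establish and maintain this cell type. In the intestine, fat cells lie in the mesenteric fat attached to the outer wall and in small numbers within the wall, whereas many enzymes of lipid synthesis on the list are also made by epithelium, and several storage genes also by smooth muscle.

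The promoters of 4 members are shown because these genes are products of fat cells and, among members with enough sequence before the start that lies outside annotated exons, had the levels most like those of *Adipoq* over the libraries. The sequences came from a RefSeq promoter table of GRCm38.p6 and were matched to GRCm39, where each had 1 match on its chromosome: *Adipoq* (adiponectin) at chr16:22965036-22965285, *Cfd* (complement factor D, or adipsin) at chr10:79726437-79726667, *Retn* (resistin) at chr8:3705520-3705746 and *Lep* (leptin) at chr6:29059970-29060215, all on the plus strand. The start is the RefSeq transcript start of that table, and the *Adipoq* and *Retn* windows lie downstream of the first start that GENCODE gives the gene, outside its exons. Capitals mark CCAAT on either strand in *Adipoq* and the C/EBP motif TTGCNNAA in *Lep*.
Adipoq: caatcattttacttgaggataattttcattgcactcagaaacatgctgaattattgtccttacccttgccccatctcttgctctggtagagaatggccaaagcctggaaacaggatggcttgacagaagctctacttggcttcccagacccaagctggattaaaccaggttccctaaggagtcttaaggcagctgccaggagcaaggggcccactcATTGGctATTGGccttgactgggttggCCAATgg
Cfd: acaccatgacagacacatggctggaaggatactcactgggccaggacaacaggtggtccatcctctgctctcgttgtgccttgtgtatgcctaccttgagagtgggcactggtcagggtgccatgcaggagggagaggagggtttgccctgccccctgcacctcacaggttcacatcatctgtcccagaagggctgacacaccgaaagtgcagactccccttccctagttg
Retn: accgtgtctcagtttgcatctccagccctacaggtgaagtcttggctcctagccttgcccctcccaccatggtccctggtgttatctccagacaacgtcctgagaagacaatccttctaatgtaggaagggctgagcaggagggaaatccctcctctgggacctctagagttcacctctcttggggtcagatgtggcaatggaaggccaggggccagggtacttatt
Lep: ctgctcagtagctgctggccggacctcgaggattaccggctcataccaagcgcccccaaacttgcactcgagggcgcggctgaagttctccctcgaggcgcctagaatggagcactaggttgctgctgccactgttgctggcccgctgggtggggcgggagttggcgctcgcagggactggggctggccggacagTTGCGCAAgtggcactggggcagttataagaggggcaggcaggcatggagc
Over both strands of the 250 bases before the start, CCAAT was present in 33.8% of 32851 promoters of all genes and in those of 10 of the 25 members with an entry, TTGCNNAA in 9.56% and in 4 members (*Cidec*, *Lep*, *Plin1* and *Pparg*), and TATAAA in 12.4% and in 2 members. A pair of AGGNCA sites spaced by 1 base, the DR1 arrangement that PPARG binds with its partner RXR, was present in 0.338% of promoters and in none of these 25. The *Adipoq* window held 3 CCAAT matches and the *Lep* window 1 C/EBP match, while those of *Cfd* and *Retn* held none of these motifs. These are matches of letters in 1 window and do not show binding. The shares of all genes count promoter entries, whereas a member counted if any of its entries held the motif. A member with several entries had more chances, so the shares are of unlike units.

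Depth was alike in all libraries, with 18214741 to 19178986 reads in genes and 21312 to 21992 genes detected. Reads of the mitochondrial genome made up 4.63% to 6.73% of the total in control, 2.55% to 3.44% in non-transferred and 3.84% to 4.82% in transferred libraries. All 35 members passed the filter of a mean of 10 normalized counts over all libraries, although *Lep* and *Cidea* were under 10 in the non-transferred group. Values are given in 2 forms: normalized counts per library, in which 1 read was worth 0.913 to 1.10, and log2 fold changes of limma on log2(normalized count + 1), which are differences between means of log values. Where the libraries of a group vary widely, such a difference can depart from the log2 ratio of the group means. The fold change that DESeq2 gave on the recovered reads is printed where it lay farthest from that of limma. These were *Adipoq*, *Cfd* and *Plin1*, and *Retn* in transferred against non-transferred colon. Its absence elsewhere does not mean that the spread was small. The pseudocount pulls the fold changes of genes with few reads towards 0.

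Most fat cell and lipid storage genes were lower in non-transferred colon than in control colon. Of the 35 members, 26 were called lower and none higher by limma (adjusted p under 0.05), against 22.9% of all 16781 tested genes called lower and 22.7% called higher. The non-transferred libraries were all below the control libraries for 27 members, against 27.9% of all tested genes. The median log2 fold change of the members was -1.61, and that of all tested genes was 0.02. By role, the median log2 fold change was lowest for the secreted (-4.50) and droplet (-2.95) genes. *Pnpla3*, *Thrsp*, *Aoc3* and *Slc2a4*, of other roles, fell further than *Cidea*, *Plin4* and *Cidec* of the droplet group. The plot of each member in each library shows that *Cebpa*, *Srebf1*, *Acly* and *Elovl6* lay near their control level.

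**Figure D1:**
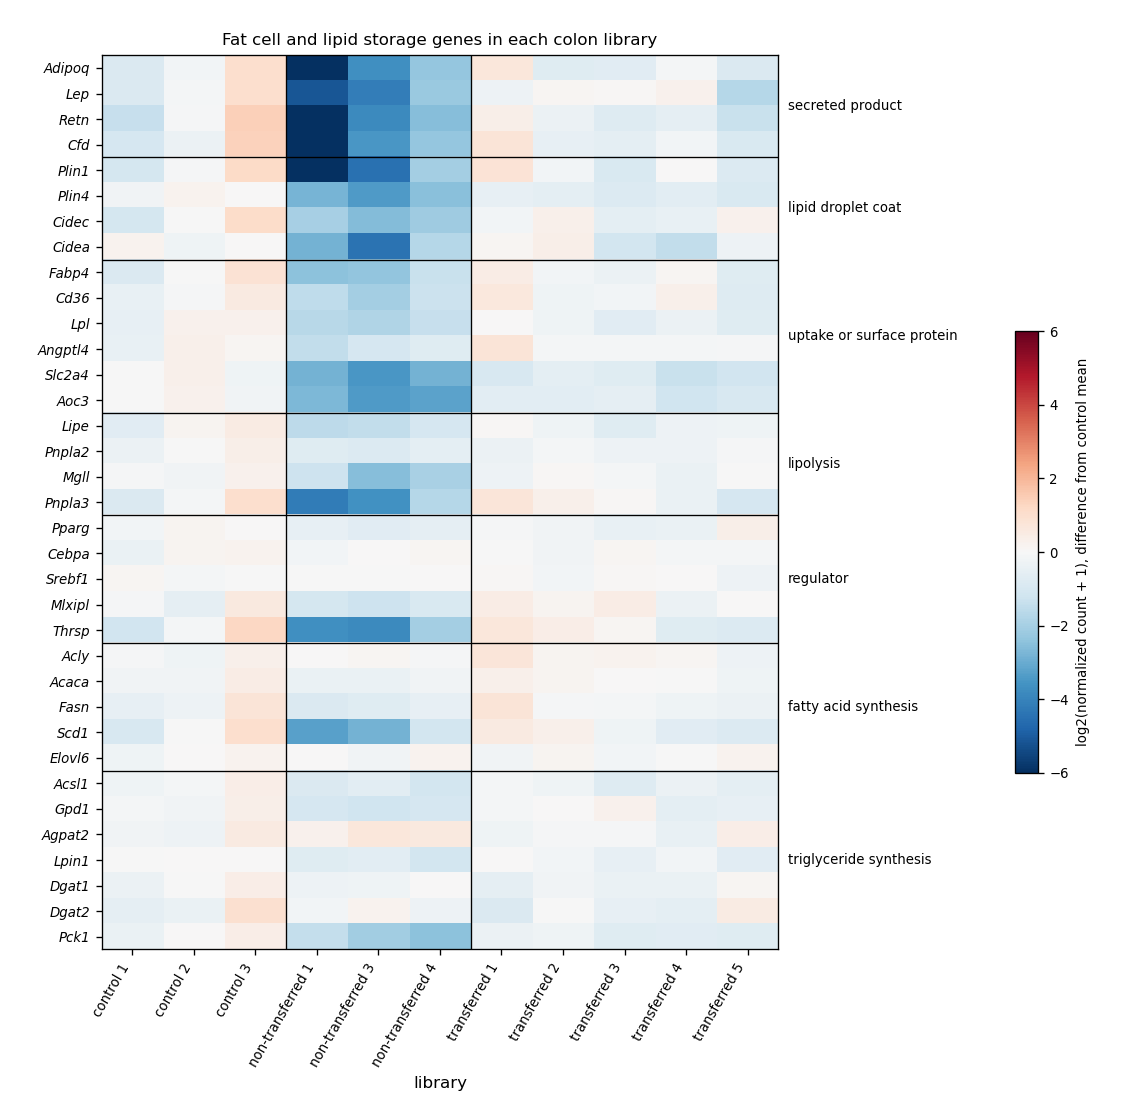
Each row is 1 of the 35 members, grouped by role, and each column 1 library, with the colour giving log2(normalized count + 1) minus the control mean (darkest at 6 or beyond). The non-transferred columns are blue for the secreted and droplet genes, while the transferred columns lie near the control level for most members, and rows such as *Cebpa*, *Srebf1* and *Elovl6* are pale throughout.

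The 4 secreted products had the lowest median log2 fold change of any role, at -4.50. *Adipoq*, the gene of the insulin-sensitizing hormone adiponectin, had 291, 464 and 1075 normalized counts in the control libraries, 1.96, 39.7 and 105 in the non-transferred libraries, and 830, 316, 333, 489 and 285 in the transferred libraries. Every non-transferred library was below every control and transferred library, and the latter groups overlapped. *Adipoq* was 12.5-fold lower in non-transferred than in control colon by the group means (log2 fold change -4.49, standard error or SE 1.01, limma adjusted p = 0.00392). DESeq2 gave a log2 fold change of -3.65. Non-transferred library 1 carried part of the size, and the limma log2 fold change was -3.0 without it and -5.59 without non-transferred library 4.

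*Lep*, the gene of the satiety hormone leptin, had 17.9, 31.8 and 68.4 normalized counts in control colon, 0, 0.969 and 6.57 in non-transferred colon, and 27.4, 37.2, 35.4, 41.0 and 9.86 in transferred colon. *Lep* was therefore detected by a few reads at most in the non-transferred group and by 9 to 62 reads elsewhere, and a count of 0 allows up to 3 reads. Its log2 fold change against control was -3.83 (SE 0.75, limma adjusted p = 0.00166), or -1.88 with a pseudocount of 10 and -4.64 without non-transferred library 4. *Retn*, which in mice encodes resistin, a hormone of fat cells that opposes insulin, had 105, 262 and 755 normalized counts in control, 0.979, 18.4 and 46.0 in non-transferred, and 353, 219, 160, 191 and 107 in transferred libraries. The non-transferred libraries again stood below all others, with a log2 fold change of -4.51 (SE 0.99, limma adjusted p = 0.00333), or -3.20 without non-transferred library 1, -5.48 without non-transferred library 4, -5.20 without control library 1 and -3.78 without control library 3. *Cfd*, the complement protease that fat cells secrete in large amounts, ranged from 1037 to 5516 in control, from 4.89 to 429 in non-transferred and from 1112 to 3597 in transferred libraries. Its log2 fold change was -4.76 (limma adjusted p = 0.00841), or -2.90, -5.39 and -5.99 without non-transferred library 1, 3 and 4 and -4.07 without control library 3. DESeq2 gave -3.73 for *Cfd*.

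**Figure D2:**
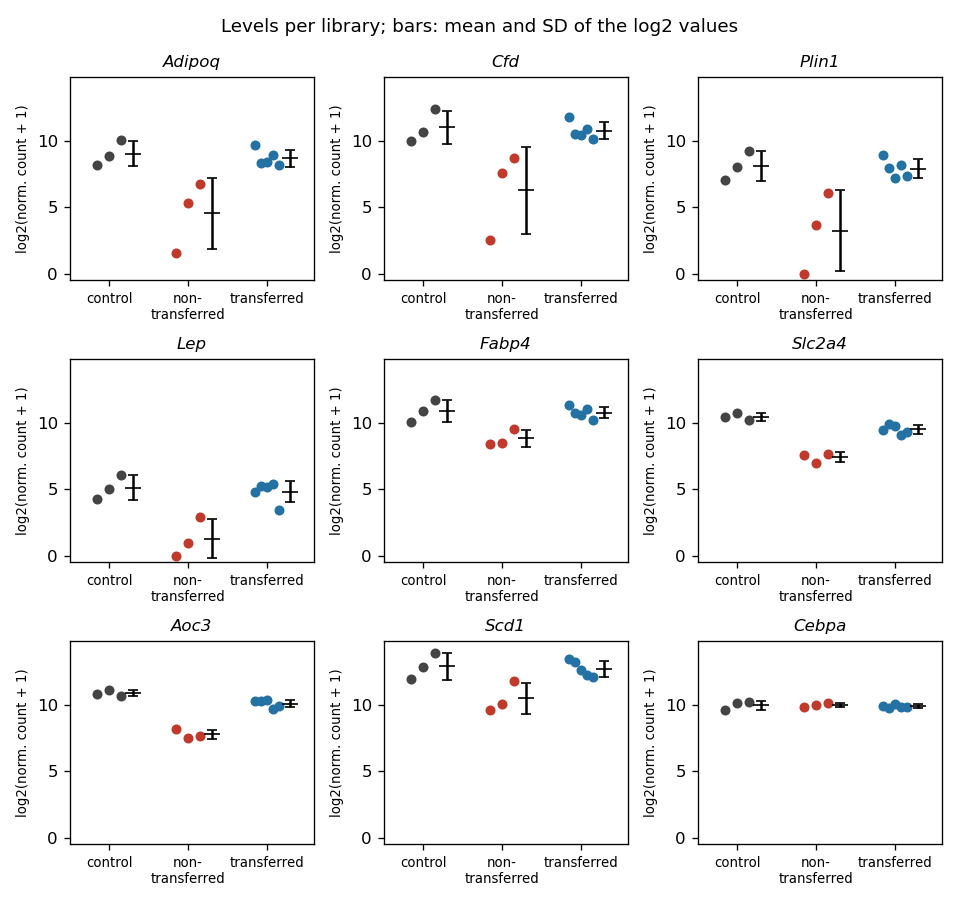
Points are libraries, with log2(normalized count + 1) on the vertical axis, and bars give the mean and SD of each group (3 control, 3 non-transferred and 5 transferred libraries) for 9 members. The non-transferred points are lowest and most scattered for *Adipoq*, *Cfd*, *Plin1* and *Lep*, tightly grouped and low for *Slc2a4* and *Aoc3*, and level with the other groups for *Cebpa*.

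All 4 lipid droplet genes were lower as well. *Plin1*, the perilipin that gates access of lipases to the droplet of fat cells, ranged from 132 to 619 normalized counts in control, from 0 to 67.9 in non-transferred and from 148 to 491 in transferred libraries (log2 fold change -4.87, limma adjusted p = 0.00542, non-transferred against control), and its log2 fold change was -3.24 without non-transferred library 1, -6.30 without library 4 and -3.69 by DESeq2. *Plin4*, a perilipin of small droplets that is also made in muscle, had 1040, 1410 and 1238 normalized counts in control, 178, 114 and 210 in non-transferred, and 862, 814, 680, 797 and 654 in transferred colon. In contrast to *Plin1*, the libraries of each group lay close together, and the 3 groups did not overlap. The log2 fold change of *Plin4* in non-transferred against control colon was -2.90 (SE 0.20, limma adjusted p = 5.82e-06). *Cidec*, which fuses small droplets into a large one, had 336, 677 and 1497 normalized counts in control, 174, 114 and 157 in non-transferred, and 623, 870, 470, 512 and 827 in transferred colon, with a log2 fold change of -2.25 (limma adjusted p = 0.00155). *Cidea*, a relative known best from brown fat, was rare, with 23.5, 16.9 and 20.9 normalized counts in control, 1.96, 0 and 5.48 in non-transferred, and 21.9, 26.2, 8.84, 6.67 and 16.4 in transferred colon. All non-transferred libraries of *Cidea* were below all others (log2 fold change -2.99, limma adjusted p = 0.00327), although the change was -1.31 with a pseudocount of 10, -2.28 without non-transferred library 3 and -3.63 without library 4.

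The 6 uptake and surface genes were called lower too, in patterns that differed in their spread. *Slc2a4*, the insulin-responsive glucose transporter GLUT4 of fat and muscle, had 1390, 1730 and 1166 normalized counts in control, 196, 124 and 199 in non-transferred, and 726, 950, 856, 551 and 645 in transferred colon. The groups were fully separated, with the transferred libraries in between, and the log2 fold change in non-transferred against control colon was -3.05 (SE 0.23, limma adjusted p = 8.05e-06). *Aoc3*, a copper amine oxidase on the surface of fat, smooth muscle and endothelial cells, behaved alike, with 1842, 2259 and 1642 normalized counts in control, 290, 180 and 205 in non-transferred, and 1236, 1242, 1297, 841 and 960 in transferred colon (log2 fold change -3.10, SE 0.21, limma adjusted p = 5.75e-06). *Lpl*, the lipase that frees fatty acids from circulating lipoproteins, had 839, 1439 and 1411 normalized counts in control, 378, 336 and 452 in non-transferred, and 1225, 1001, 750, 945 and 732 in transferred colon. Its fall was smaller, with a log2 fold change of -1.63 (SE 0.23, limma adjusted p = 0.000264). *Fabp4* (a fatty acid carrier of fat cells, macrophages and endothelium), *Cd36* (a fatty acid translocase of the same cells) and *Angptl4* (an inhibitor of LPL) had log2 fold changes of -2.05, -1.61 and -1.07. The call of *Angptl4* was lost without control library 2 (limma adjusted p = 0.0529).

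The 4 lipolysis genes fell to different extents. *Mgll*, the lipase of the final, monoglyceride step, had 4068, 3792 and 5223 normalized counts in control, 1809, 734 and 1125 in non-transferred, and 3474, 4477, 4044, 3245 and 4239 in transferred colon (log2 fold change -1.92, SE 0.26, limma adjusted p = 0.000197). *Lipe*, hormone-sensitive lipase, had 462, 809 and 1037 normalized counts in control, 248, 263 and 364 in non-transferred, and 764, 607, 446, 584 and 619 in transferred colon, with a log2 fold change of -1.34 (limma adjusted p = 0.00221). In both genes, no non-transferred library reached the lowest control or transferred library. *Pnpla3*, a lipase-like droplet protein of fat and liver, had 58.4, 98.4 and 216 normalized counts in control, 4.89, 7.75 and 31.8 in non-transferred, and 182, 133, 114, 81.0 and 52.6 in transferred colon (log2 fold change -3.19, limma adjusted p = 0.00222, or -3.92 without non-transferred library 4). *Pnpla2*, the triglyceride lipase ATGL found in many tissues, fell least of the 4, by 0.70 on the log2 scale (limma adjusted p = 0.00424).

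Among the 5 regulators, 3 were lower and 2 were not called. *Thrsp*, a nuclear protein of lipid-making tissues, had 171, 347 and 906 normalized counts in control, 28.4, 26.2 and 90.9 in non-transferred, and 602, 495, 417, 232 and 210 in transferred colon (log2 fold change -3.18, limma adjusted p = 0.00177, or -2.55 without control library 3). *Mlxipl*, the carbohydrate-responsive factor ChREBP, had 455, 324 and 719 normalized counts in control, 225, 200.53 and 249.7 in non-transferred, and 635, 524, 637, 370 and 484 in transferred colon, with a log2 fold change of -1.07 (limma adjusted p = 0.0069). *Pparg*, the master factor of fat cells, which colon epithelium also makes in quantity, had 2636, 3303 and 3070 normalized counts in control, 2147, 1876 and 2061 in non-transferred, and 2826, 2621, 2207, 2278 and 3864 in transferred colon. The groups of *Pparg* did not overlap between non-transferred colon and the others, but its log2 fold change against control of -0.56 (limma adjusted p = 0.0251) lost its call without control library 2 or 3 or non-transferred library 3 or 4 (limma adjusted p = 0.0888, 0.0634, 0.0835 and 0.055). *Cebpa*, which encodes C/EBP alpha, had group means of 1027, 1013 and 960 normalized counts in control, non-transferred and transferred colon, and *Srebf1*, the sterol-regulated factor of lipid synthesis, had 1954, 1966 and 1873. Their log2 fold changes in non-transferred against control colon were 0.00 (SE 0.16) and 0.01 (SE 0.12), neither called.

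Of the 5 fatty acid synthesis genes, *Scd1* was the gene called by limma. *Scd1*, the desaturase that makes oleate, had 3874, 7505 and 15350 normalized counts in control, 786, 1060 and 3562 in non-transferred, and 11188, 9504, 6316, 4791 and 4317 in transferred colon (log2 fold change -2.41, SE 0.60, limma adjusted p = 0.00654, or -3.06 without non-transferred library 4). *Fasn*, fatty acid synthase, had 5168, 5896 and 12321 normalized counts in control, 4013, 4428 and 5101 in non-transferred, and 12201, 6852, 6574, 6065 and 5594 in transferred colon. All non-transferred libraries of *Fasn* were below all others, but the log2 fold change against control of -0.68 (SE 0.33) did not pass (limma adjusted p = 0.109) and was -0.30 without control library 3. DESeq2 on the recovered reads called *Fasn* lower (adjusted p = 0.0437). *Acaca*, acetyl-CoA carboxylase, which feeds *Fasn* with its substrate, had 896, 902 and 1409 normalized counts in control, 794, 797 and 907 in non-transferred, and 1281, 1184, 1057, 1017 and 886 in transferred colon, with overlapping groups and a log2 fold change of -0.33 (limma adjusted p = 0.155). *Acly*, which makes cytosolic acetyl-CoA, and *Elovl6*, an elongase, were level, with log2 fold changes of 0.02 (SE 0.22) and 0.00 (SE 0.16).

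Of the 7 triglyceride synthesis genes, 4 were called lower. *Pck1*, which supplies the glycerol backbone from pyruvate in fat and is abundant in gut epithelium, had 3287, 4381 and 5822 normalized counts in control, 1619, 1035 and 797 in non-transferred, and 3432, 3700, 2669, 2710 and 2623 in transferred colon (log2 fold change -1.99, SE 0.26, limma adjusted p = 0.00015). *Gpd1*, which makes glycerol phosphate from a sugar intermediate, had 1647, 1558 and 2332 normalized counts in control, 916, 804 and 892 in non-transferred, and 1699, 1831, 2157, 1205 and 1302 in transferred colon, with a log2 fold change of -1.06 (limma adjusted p = 0.00196). *Acsl1*, which activates fatty acids with coenzyme A, had 611, 658 and 945 normalized counts in control, 402, 463 and 341 in non-transferred, and 667, 613, 429, 572 and 490 in transferred colon, with a log2 fold change of -0.86 (limma adjusted p = 0.0045). *Lpin1*, the phosphatidate phosphatase lipin, fell by 0.81 on the log2 scale. The 2 genes of the final acyl transfer, *Dgat1* and *Dgat2*, were not called, with log2 fold changes of -0.19 (SE 0.20) and -0.09 (SE 0.39).

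*Agpat2*, an acyltransferase whose loss causes a lack of fat tissue in people and mice, had the opposite sign. It had 2223, 2060 and 3670 normalized counts in control, 3042, 4143 and 3835 in non-transferred, and 2120, 2426, 2449, 1881 and 3359 in transferred colon. Control library 3 and transferred library 5 lay within the non-transferred range, and the others below it. The log2 fold change in non-transferred against control colon was 0.51 (SE 0.24, limma adjusted p = 0.103), and 0.77 without control library 3 (limma adjusted p = 0.0163).

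Most members were higher in transferred than in non-transferred colon. This comparison shares the non-transferred libraries with the previous one, so the directions of the pair of comparisons are not independent. Of the 35 members, 24 were called higher and none lower, against 17.0% of all tested genes called higher and 14.2% called lower, and for 25 members the transferred libraries were all above the non-transferred libraries, against 17.6% of all tested genes. The median log2 fold change was 1.24 for the members and -0.02 for all tested genes. All secreted, droplet, uptake and lipolysis genes were called higher, as were 2 regulators (*Mlxipl* and *Thrsp*), *Scd1*, and 3 triglyceride synthesis genes (*Gpd1*, *Lpin1* and *Pck1*).

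The log2 fold changes of transferred against non-transferred colon were 4.15 for *Adipoq* (SE 0.91, limma adjusted p = 0.00577), 3.52 for *Lep*, 3.98 for *Retn* and 4.48 for *Cfd*. Without non-transferred library 1 they were 2.66, 2.87, 2.67 and 2.62, and without non-transferred library 4 they were 5.24, 4.33, 4.95 and 5.71. DESeq2 gave 3.21 for *Adipoq*, 3.25 for *Retn* and 3.21 for *Cfd*. With a pseudocount of 10, the log2 fold change was 1.65 for *Lep* and 1.02 for the droplet gene *Cidea*. Among droplet genes, the log2 fold change was 4.67 for *Plin1* (3.04 and 6.09 without non-transferred library 1 and 4, and 3.34 by DESeq2), 2.21 for *Plin4* (limma adjusted p = 7.67e-05), 2.12 for *Cidec* and 2.51 for *Cidea* (1.80 and 3.15 without non-transferred library 3 and 4). *Slc2a4* and *Aoc3* were higher by 2.11 and 2.31, *Lpl* by 1.24 and *Scd1* by 2.23 on the log2 scale (2.88 for *Scd1* without non-transferred library 4). *Pparg* was above the non-transferred range in all 5 transferred libraries, with a log2 fold change of 0.42 that did not pass (limma adjusted p = 0.0716). It passed with quantile normalization (limma adjusted p = 0.0251), with DESeq2 (adjusted p = 0.0394) and without transferred library 3 (limma adjusted p = 0.0474). The rises of *Pnpla2* (0.47) and *Lpin1* (0.52) were the smallest that passed. The call of *Pnpla2* was lost without non-transferred library 1 or 3 or transferred library 2 (limma adjusted p = 0.0641, 0.119 and 0.0579), and that of *Lpin1* without non-transferred library 1 or 4 or transferred library 1, 2 or 4 (adjusted p from 0.0585 to 0.157). *Agpat2* had a log2 fold change of -0.60 that missed the threshold (limma adjusted p = 0.0507).

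Between transferred and control colon, 34 of 35 members were not called. *Slc2a4* was the member called lower, with a log2 fold change of -0.95 (SE 0.21, limma adjusted p = 0.0488), and none was called higher, against 0.453% and 1.14% of all tested genes called lower and higher. The transferred libraries were all below the control libraries for *Slc2a4*, *Plin4* (log2 fold change -0.69, limma adjusted p = 0.0798) and *Aoc3* (log2 fold change -0.79, limma adjusted p = 0.0601). The share of all tested genes separated in this way was not counted for this comparison. Whether these members stand out by their separation is therefore not known. The call of *Slc2a4* was fragile. It was lost when any control library, non-transferred library 1 or 4, or transferred library 1, 3 or 4 was left out, with an adjusted p up to 0.269. For the secreted genes the log2 fold changes were small beside their errors, such as -0.34 for *Adipoq* (SE 0.91) and -0.31 for *Lep* (SE 0.67), so that sizeable differences in either direction could not be detected. The median log2 fold change of the members was -0.18, and that of all tested genes was -0.01. In this comparison 31 members had a log2 fold change below 0 and 4 above, but without control library 3 it was 15 below and 20 above, with a member median of 0.14.

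**Figure D3:**
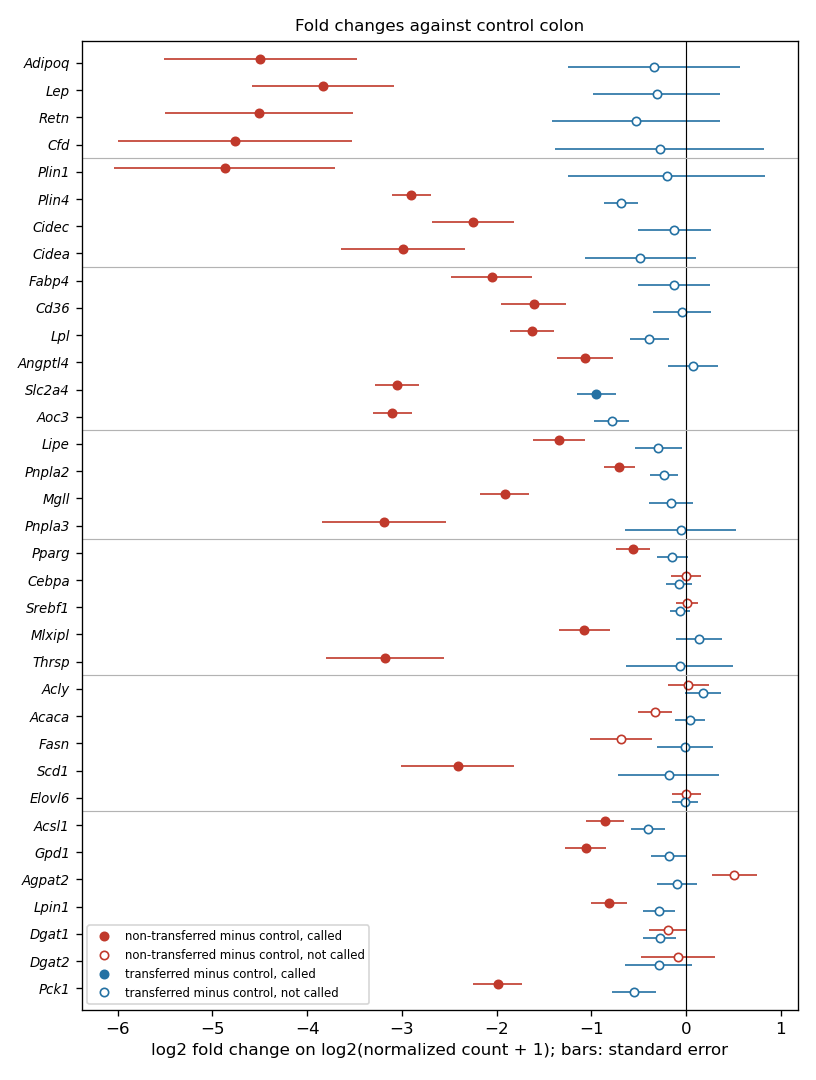
Points are log2 fold changes on log2(normalized count + 1) against control, with standard errors as bars, for non-transferred (red) and transferred (blue) colon, and filled points passed the test. Red points reach from -4.87 for *Plin1* to 0.51 for *Agpat2*, while blue points lie between -0.95 and 0.18, with *Slc2a4* the filled blue point.

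Levels of different genes were set per kilobase of annotated exon, a length that can exceed that of the RNA made. *Fabp4* had 433 normalized counts per kilobase in control colon on a length of 4953 bases, which is its whole gene from start to end. A shorter RNA would place such a gene higher, so the order below holds for this length only. On this scale the highest mean level in control colon was that of *Cfd* (2838), followed by *Scd1* (1236), *Pck1* (1215) and *Pnpla2* (1035). The lowest were *Lep* (11.7) and *Cidea* (9.14). The spread between control libraries was 5.32-fold for *Cfd* and 3.96-fold for *Scd1*, so the order of neighbours is uncertain for this reason too. In non-transferred colon the level per kilobase of *Agpat2* (817) and *Pnpla2* (623) exceeded that of *Cfd* (215).

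Within groups, the fat cell products varied widely and together. *Adipoq* spanned 3.69-fold among control, 53.7-fold among non-transferred and 2.91-fold among transferred libraries, and 2.65-fold among the non-transferred libraries other than library 1, which held 2 *Adipoq* reads, whereas *Plin4* spanned 1.36-fold, 1.84-fold and 1.32-fold. Of the 26 members called lower in non-transferred colon, 18 were highest in library 3 among controls, 18 in library 4 among non-transferred and 15 in library 1 among transferred libraries. The ratio of *Cfd* to *Adipoq* reads was nearly fixed, at 3.56 to 5.13 over the 10 libraries with at least 10 *Adipoq* reads, and that of *Retn* to *Adipoq* reads was 0.362 to 0.703. The other members examined in this way spread more widely. *Slc2a4* had 0.875 to 4.78 reads per *Adipoq* read, and *Lep*, a fat cell product with few reads, had 0.0244 to 0.118. *Plin1* had 0.293 to 0.78 and *Fabp4* 3.121 to 9.195. Non-transferred library 1, left out of these ranges, had 2 *Adipoq* reads beside 5 of *Cfd*, 1 of *Retn* and 0 of *Plin1* and *Lep*. The same library had 356 reads of *Fabp4* and 200 of *Slc2a4*.

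Over the 11 libraries, levels on the log2 scale of *Cfd*, *Plin1* and *Retn* had a Pearson correlation with *Adipoq* of 0.996, 0.994 and 0.989. With *Myh11*, the myosin of smooth muscle, *Aoc3*, *Slc2a4* and *Plin4* had a correlation of 0.983, 0.982 and 0.961, and *Mgll* and *Pck1* of 0.938 and 0.932. *Adipoq* and *Myh11* themselves had a correlation of 0.70. These values describe 11 libraries that fall into 3 groups with different means and share those groups, so a gene that differs between the groups is correlated with any other that does. *Agpat2* stood apart, with -0.40 and -0.60.

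**Figure D4:**
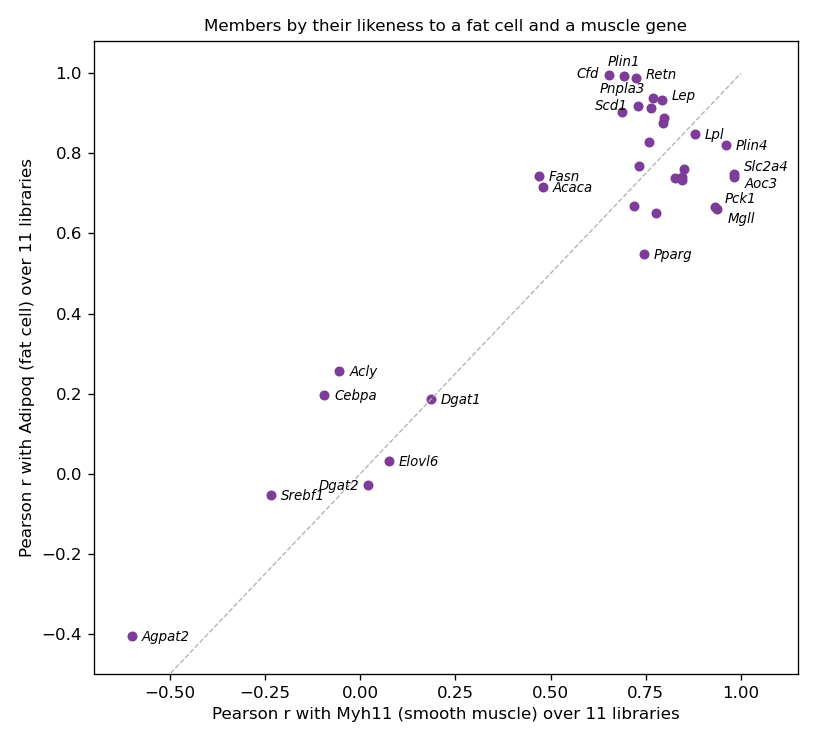
Each point is a member other than *Adipoq*, placed by its Pearson correlation over 11 libraries with *Myh11* (horizontal axis) and with *Adipoq* (vertical axis), and the dashed line marks equal values. *Cfd*, *Plin1* and *Retn* lie at the top and left of the line, *Aoc3*, *Slc2a4* and *Plin4* at the far right, and *Agpat2* at the bottom left.

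Other genes of fat cells, outside the list, gave the following counts. Of 15 tested, 11 were called lower in non-transferred against control colon (median -1.32 on the log2 scale), against 22.9% of all tested genes. In transferred against non-transferred colon 9 were called higher, against 17.0% of all tested genes. *Car3*, a carbonic anhydrase abundant in fat and muscle, had a log2 fold change of -4.67 (limma adjusted p = 0.00112), *Adrb3*, the receptor through which noradrenaline drives lipolysis, of -3.19, and *Aqp7*, the glycerol channel, of -3.0. *Lgals12*, *Adig*, *Rbp4* and *Plin5* were not called. *Gpam* (log2 fold change -0.54, limma adjusted p = 0.047) was the gene of this list called lower in transferred against control colon, and the number of such genes was 0 to 2 under other settings and 0 to 1 with a library left out. Among 6 tested genes of brown or beige fat, 4 were called lower in non-transferred colon, against 22.9% of all tested genes. These included *Cox8b* and *Ppargc1a*, with log2 fold changes of -3.14 and -1.02, whereas *Prdm16* and *Dio2* were not called.

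Markers of other cells were examined beside these genes. All 8 smooth muscle markers were called lower in non-transferred against control colon, against 22.9% of all tested genes, at a median of -2.71 on the log2 scale. Their summed level was 210474 to 261103 normalized counts in control, 29706 to 43472 in non-transferred and 89715 to 145981 in transferred colon. In transferred against control colon, 5 of the 8 were called lower, against 0.453% of all tested genes, at a median of -0.88 on the log2 scale. Of 5 markers of mesothelium, the outer lining of the gut, 2 were called lower (*Upk3b* and *Wt1*), against 22.9% of all tested genes. The sum of the 5 was 169 to 368 in control, 56.9 to 178 in non-transferred and 104 to 255 in transferred colon. The 4 neutrophil markers and 4 T cell markers were all called higher in non-transferred colon, against 22.7% of all tested genes. Of 8 epithelial markers 2 were called higher, a share near that of all tested genes, and none lower. Of 8 tested genes of lipid handling in gut epithelium, 3 were called lower (*Fabp2*, *Mogat2* and *Apob*), against 22.9% of all tested genes. Lists this short leave such shares uncertain. Of 6 fibroblast markers 2 (*Lum* and *Dpt*) and of 7 endothelial markers 2 (*Kdr* and *Tek*) were called lower, shares near the 22.9% of all tested genes. A larger share of skeletal muscle markers was called lower, at 2 of 3 tested (*Acta1* and *Ckm*). Of 5 macrophage markers 3 were called higher, against 22.7% of all tested genes, and 1 (*Cd163*) lower. Markers of pancreas, a tissue near the colon in the abdomen, summed to 390 normalized counts in non-transferred library 3 and 122 in transferred library 5, and to 1.88 to 30.8 in the other libraries. The part of these cells in the levels of the fat cell genes was not tested, nor was the amount of fat left on each piece of colon.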

How the data were processed

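RNA of mouse colon was sequenced by the authors, who aligned reads to GRCm39 and counted them per gene. The submitters' processing notes name HISAT2 (2.2.1), SAMtools (1.13), HTSeq (1.99.2) and DESeq2 (1.40.2); the study's methods also name a second aligner and a pair of platforms without saying which served these libraries. The release of the annotation and whether counting used strand were not given in the sources used here, and overlapping genes are uncertain for this reason. The deposited signal values hold counts divided by 1 factor per library, in 1 table of 22836 genes and 11 libraries. All values (100%) were whole multiples of 1 step within 0.05, which gave back the reads.

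Gene symbols came from a GENCODE annotation of GRCm39, which held 99.2% of the gene identifiers. Groups followed the labels. Tests were made with limma (3.58.1) in R (4.3.3), with its variance trend, on the log2 of normalized counts plus 1, over the 16781 genes that averaged 10 or more, all 3 groups in 1 fit, and a Benjamini-Hochberg adjusted p under 0.05 over all genes tested. The step was tested on simulated data. Members and lists were chosen with earlier results of these data known. In each role, values per library are given for the 3 members with the smallest adjusted p in non-transferred against control colon and for any member called in transferred against control colon, and *Agpat2* was added after its values were seen. Other members and list genes described by single values were also chosen with their values known. Alternatives were count tests of the recovered reads by DESeq2 (1.42.0) and edgeR (4.0.16), TMM scaling and quantile normalization, a pseudocount of 0.5 or 10, a minimum mean of 50 or none, the 2 compared groups alone, no variance trend, the study's threshold (a log2 fold change beyond 0.6 at p under 0.05, not adjusted), a replicate block and each library left out in turn.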

Additional observations from a re-analysis of the deposited data

Results flagged for a closer look

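Of the 35 members, 2 had a library that stood far from the rest of its group, in the 5 transferred libraries, the only group large enough to examine. Both were highest in transferred library 1. *Angptl4* had 234 normalized counts there and 122 to 127 in the other transferred libraries. *Fasn* had 12201 there and 5594 to 6852 in the others. Chance marks about 1 in 20 groups in this way, and 35 members were examined.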

How the results depend on the processing

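The number of members called lower in non-transferred against control colon was 26, and 24 to 27 under the 12 other settings and with each library left out. The number called higher in transferred against non-transferred colon was 24, and 22 to 27. Members called higher in non-transferred against control colon were 0, and 0 to 1 with a library left out (*Agpat2*, without control replicate 3). Members called lower in transferred against non-transferred colon were 0, but 1 (*Agpat2*) with quantile normalization, DESeq2, the compared groups alone, the replicate block or the study's threshold, and 0 to 1 with a library left out. Members called lower in transferred against control colon were 1, but 0 with quantile normalization, TMM scaling, edgeR, the compared groups alone, no variance trend or the replicate block, 3 with DESeq2 or the study's threshold (*Slc2a4*, *Plin4* and *Aoc3*), and 0 to 2 with a library left out. None was called higher there under any setting. The replicate block also removed the calls of *Angptl4* (non-transferred against control, limma adjusted p = 0.051) and *Pnpla2* (transferred against non-transferred, limma adjusted p = 0.0798). Deviations of same-numbered libraries had correlations of -0.10 to 0.39, and those of differently numbered libraries of -0.40 to 0.28. The highest value was that of control library 1 and transferred library 1. These overlapping ranges do not decide whether the numbers pair the samples, and transferred library 5 bears another number in its title. The main fit did not use the numbers as pairs. The log2 fold change of *Adipoq* in transferred against control colon was -0.34, and -0.77 to 0.17 with a library left out, above 0 without control replicate 3. That of *Lep* was -0.31, and -0.76 to 0.18. In non-transferred against control colon, members near 0 also changed sign: *Cebpa* was -0.050 with quantile normalization, -0.022 with edgeR, -0.031 with DESeq2, -0.012 with the replicate block and -0.20 to 0.11 with a library left out. *Srebf1* was -0.038 with quantile normalization, -0.0023 with DESeq2, -0.055 with the replicate block and -0.039 to 0.083 with a library left out. *Acly* was -0.0077 with quantile normalization, -0.0057 with DESeq2 and -0.11 to 0.18, and *Elovl6* was -0.062 with quantile normalization, -0.00096 with edgeR, -0.0095 with DESeq2 and -0.12 to 0.11. *Dgat1* and *Dgat2* were -0.36 to 0.0045 and -0.35 to 0.38 with a library left out. For the 67 member fold changes examined in this way (35 in non-transferred against control, 27 in transferred against non-transferred and 5 in transferred against control colon), 1451 of 1536 values under other settings kept the direction and the side of the threshold, 33 lost a call, 22 gained 1 and 30 had the other sign, those of the 8 fold changes named here. Other members entered the latter 2 comparisons by their counts only. The causes were not tested. *Lep* and *Cidea* rest on few reads in non-transferred colon, which limits the size of their fold changes.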

Other observations

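Outside the member list, the 10 tested genes whose levels were most like those of *Adipoq* over the 11 libraries, by the Pearson correlation on the log2 scale, were *Car3* (0.989), *Slc7a10* (0.963), *A530016L24Rik* (0.957), *Adrb3* (0.948), *Ankef1* (0.943), *Cyp2e1* (0.94), *Fastk* (0.938), *Mrap* (0.933), *Clasrp* (0.932) and *Arsa* (0.924). *Slc7a10*, an amino acid transporter, had a mean of 55.5 normalized counts in control, 4.95 in non-transferred and 40.8 in transferred colon. *Cyp2e1*, a cytochrome P450 abundant in liver and present in fat, ranged from 98 to 560 in control, from 2.94 to 14.2 in non-transferred and from 116 to 401 in transferred libraries, with no overlap of the non-transferred group with the others. *Mrap*, the accessory protein of the corticotropin receptor, which fat cells also make, had a log2 fold change of -2.43 in non-transferred against control colon that did not pass (limma adjusted p = 0.0681). *Fastk*, *Clasrp* and *Arsa* are broadly expressed genes, and their log2 fold changes were small, at -0.34, -0.46 and -0.45. The ratio of *Car3* to *Adipoq* reads was 2.37 to 4.49 over the 10 libraries with at least 10 *Adipoq* reads. The libraries share their groups, so these correlations describe a shared pattern and carry no test.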
